A study of Mus musculus with 9 samples.

Results

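The genes described here are 10 regulators and markers of endoderm, the germ layer and extraembryonic lineage that give rise to the gut and to the yolk sac: Sox17, Foxa1, Foxa2, Hhex, Gata4, Gata6, Sox7, Cer1, Cxcr4 and Trh. They were chosen by name as known endoderm genes, with earlier results of these data known, and the rule itself used no measured value. Each had 1 probe set annotated with that symbol alone, so all 10 were among the 19938 genes measured, and none was left out by a filter on low values. They were measured in 3 cultures of mouse pluripotent stem cells, with 3 arrays per culture and 9 in all.

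Epiblast stem cells (EpiSCs) of strain CD1, the counterpart of the primed epiblast just before gastrulation, were kept in CHIR99021 (3 µM), which inhibits GSK3, with XAV939 (2 µM), which inhibits tankyrase and stabilises Axin. EpiSCs of the same strain were also kept in FGF2 (10 ng/ml) with activin (10 ng/ml), the growth factors commonly used for these cells. Embryonic stem cells (ESCs) of strain 129, the counterpart of the naive epiblast of the blastocyst, were kept in 2i, which by the common meaning of that name is CHIR99021 (3 µM) with PD0325901 (1 µM), an inhibitor of MEK. The labels give the agents and doses as 1 list for every sample, and fetal bovine serum at 10% for all 3 groups. Strain and PD0325901 go with cell type. The first EpiSC medium also differs from 2i by XAV939, and the second by CHIR99021, FGF2 and activin. In each comparison with ESCs, cell state, strain, MEK inhibition and these other agents therefore cannot be told apart. The labels do not state separate cultures for the 3 arrays of a group, so each p-value reflects how much these arrays vary, and that variation may be technical.

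Endoderm arises at separate points of mouse development. In the blastocyst, Gata6 starts a programme that runs through Gata4, Sox17 and Sox7 and makes primitive endoderm, the source of visceral and parietal endoderm. During gastrulation, strong Nodal or activin signalling in the primitive streak, acting through Eomes and Smad proteins, induces definitive endoderm, which expresses Foxa2, Sox17 and Cxcr4 and later Hhex and Foxa1. Pluripotent cells keep most of these genes low, and a rise of several of them together is the usual sign that a culture has begun to differentiate.

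The values are RMA log2 expression, on which 1 unit is a 2-fold difference, and array medians were 5.57 to 5.65. The pluripotency markers separated the labelled cell types. All 7 naive markers fell in both EpiSC groups against ESCs, with log2 differences from -7.12 (Nr0b1) to -1.75 (Klf4) in CHIR/XAV EpiSCs and from -5.67 (Nr0b1) to -1.53 (Klf4) in FGF2/activin EpiSCs. All 6 primed markers rose, with differences between 1.02 (Zic2) and 3.65 (Otx2) in CHIR/XAV EpiSCs and between 0.72 (Zic2) and 3.95 (Otx2) in FGF2/activin EpiSCs. Of 5 genes shared by both states 2 rose and 2 fell in each, and Pou5f1 (Oct4) stood at 11.59 in CHIR/XAV EpiSCs, 11.68 in FGF2/activin EpiSCs and 11.33 in ESCs. No detection calls were used, so the 1027 olfactory receptor genes, which such cells are not known to use, gave a scale for dim values. The central 90% of their group means, which is the range from the 5th to the 95th percentile, ran from 4.14 to 5.30 in CHIR/XAV EpiSCs, from 4.10 to 5.18 in FGF2/activin EpiSCs and from 4.22 to 5.43 in ESCs.

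Among the 10 genes, Trh was the one with a large difference between cultures, and it was highest in ESCs. It fell 17.2-fold in CHIR/XAV EpiSCs and 3.67-fold in FGF2/activin EpiSCs. In bulk samples of this kind, fewer cells that express a gene and less RNA per cell cannot be told apart. The other 9 genes differed by at most 0.54 log2 units (Gata4). The group means of Sox17, Sox7, Cer1 and Gata4 lay within the range of olfactory receptor genes in every culture. Those of Foxa1, Cxcr4 and Hhex lay above that range in every culture, and those of Foxa2 and Gata6 in both EpiSC groups. Gata6 was slightly higher in FGF2/activin EpiSCs than in 2i ESCs, Hhex was slightly lower in CHIR/XAV EpiSCs than in both other groups, and Gata4 was slightly lower in both EpiSC groups than in ESCs. None of the definitive endoderm genes Foxa2, Sox17, Cxcr4, Hhex and Foxa1 was called higher against ESCs in either EpiSC group as deposited. Foxa1 did pass in the FGF2/activin cultures after median centring (0.29), quantile normalization (0.27) and with olfactory receptor genes set equal between arrays (0.43). Foxa2 passed in both EpiSC groups in that last setting. Cer1 was not called higher either, but its values were very dim. Several of these genes also mark other tissues.

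**Figure D1:**
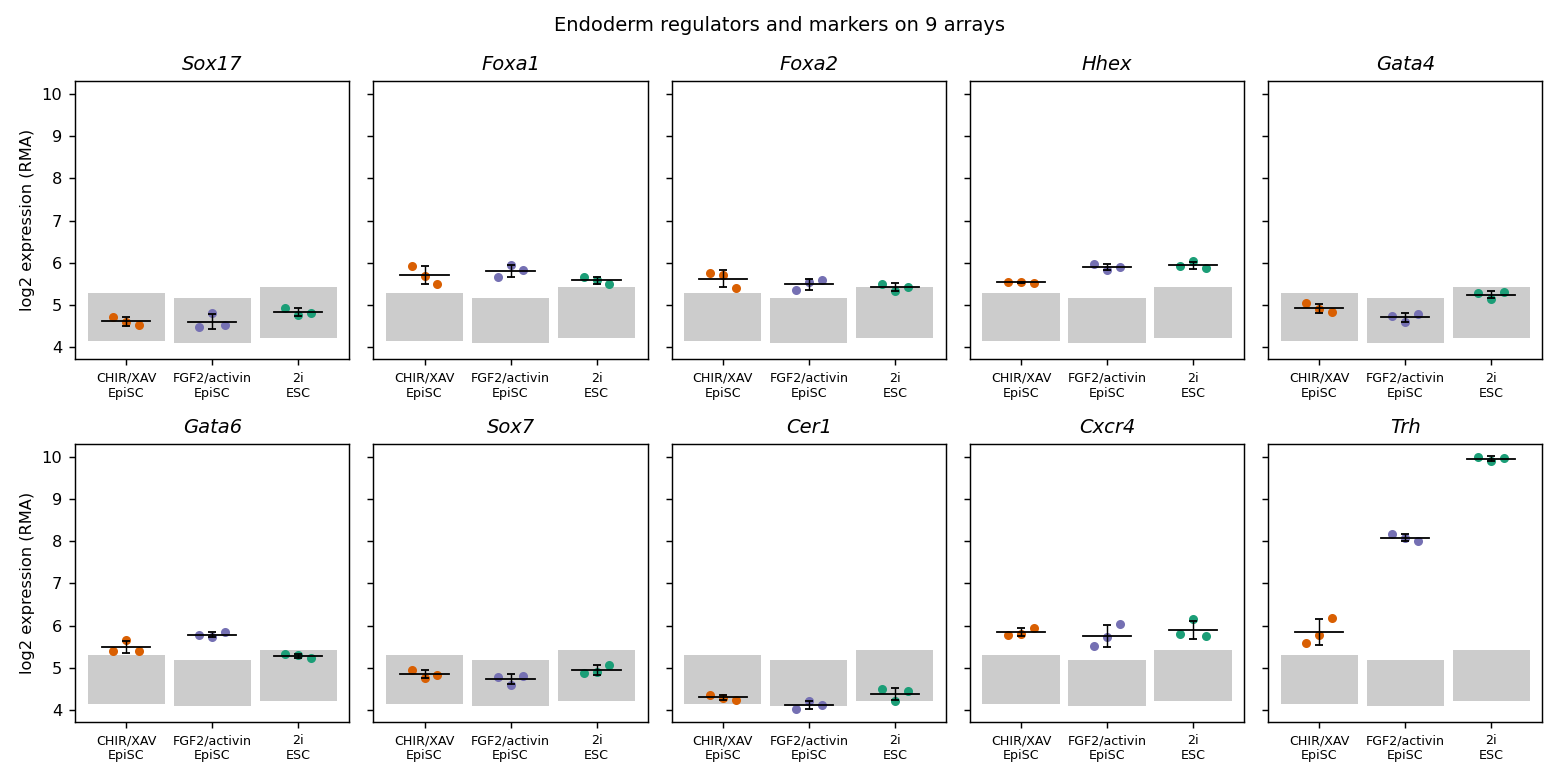
Log2 expression (RMA) of the 10 genes on each of 9 arrays (dots), with the group mean (line) and SD (bar, n = 3), for CHIR/XAV EpiSCs, FGF2/activin EpiSCs and 2i ESCs, over grey boxes that span the 5th to 95th percentile of the group means of 1027 olfactory receptor genes. Trh averages 5.85 in CHIR/XAV EpiSCs, 8.08 in FGF2/activin EpiSCs and 9.96 in ESCs, while Sox17, Sox7, Cer1 and Gata4 lie inside or below the boxes in all 3 groups.

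Calls were made with limma on all 9 arrays with Benjamini-Hochberg adjustment over 19938 genes and a threshold of 0.05. In CHIR/XAV EpiSCs against ESCs, none of the 10 genes was called higher, where 24.7% of all genes were, and 3 were called lower (Trh, Hhex and Gata4), where 22.1% of all genes were. In FGF2/activin EpiSCs against ESCs, 1 was called higher (Gata6), against 27.8% of all genes, and 5 lower (Trh, Gata4, Cer1, Sox17 and Sox7), against 33.5%. In CHIR/XAV against FGF2/activin EpiSCs, 1 was called higher (Gata4), against 20.5% of all genes, and 3 lower (Trh, Hhex and Gata6), against 21.1%. Without adjustment (limma, p under 0.05) the numbers were 5, 7 and 5 of 10, beside 10468, 13100 and 9885 of the 19938 genes. With 10 genes, no share can be read closely. At 2-fold or more only Trh was called, in each of the 3 comparisons, where 8.32%, 10.1% and 4.11% of all genes were. The median log2 difference over the 10 genes was -0.096, -0.18 and 0.047 in the 3 comparisons, beside -0.031, -0.082 and 0.048 over all genes. The 3 comparisons share arrays, so they are not independent of each other.

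**Figure D2:**
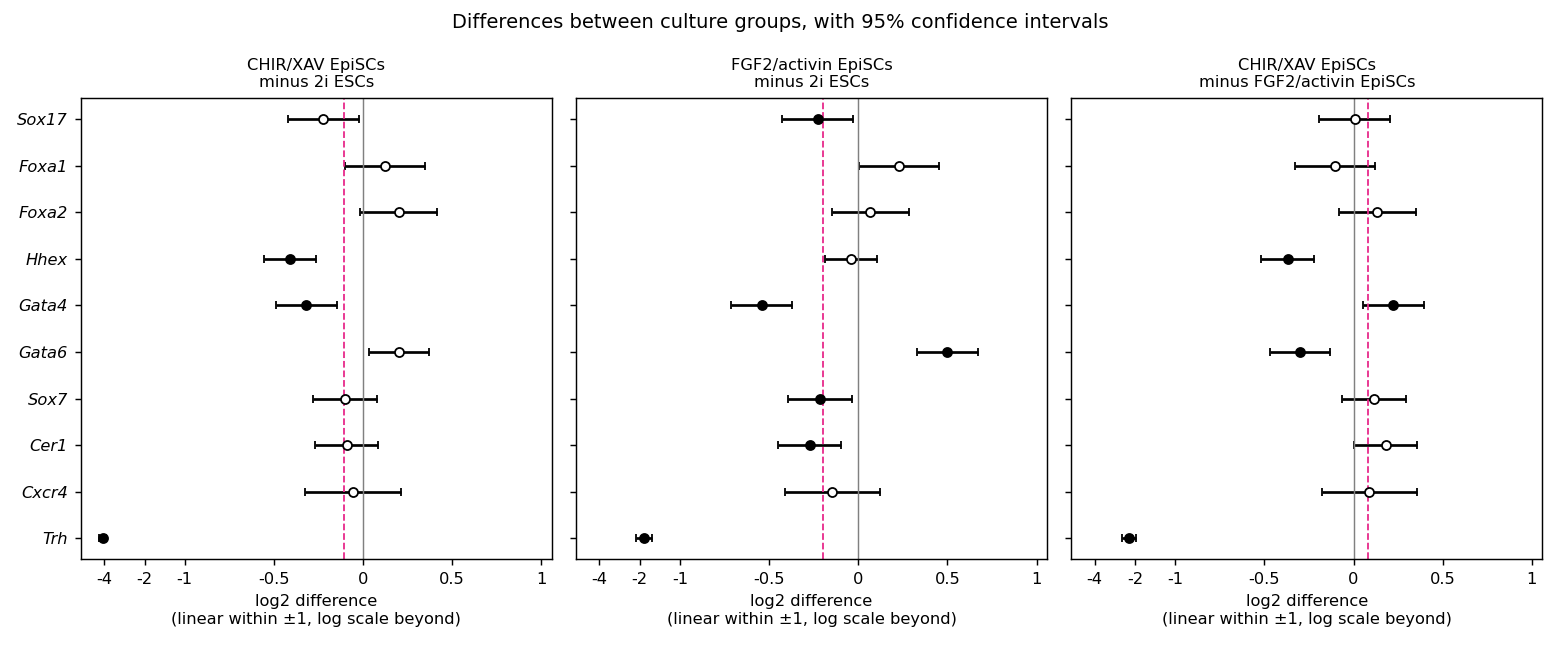
Log2 difference of each of the 10 genes with its 95% confidence interval (limma, 9 arrays) in CHIR/XAV EpiSCs minus 2i ESCs, FGF2/activin EpiSCs minus 2i ESCs and CHIR/XAV minus FGF2/activin EpiSCs, with filled dots for an adjusted p under 0.05 and a dashed line at the median difference of 1027 olfactory receptor genes. Trh stands apart at -4.11, -1.87 and -2.23, and the other 9 genes lie between -0.54 and 0.50.

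Trh encodes the precursor of thyrotropin-releasing hormone, a tripeptide best known from the hypothalamus, and is also expressed in early definitive endoderm of the mouse embryo. It was at 5.58, 5.78 and 6.19 on the CHIR/XAV arrays, at 8.18, 8.07 and 8.002 on the FGF2/activin arrays and at 9.99, 9.90 and 9.98 on the ESC arrays. The 3 groups did not overlap, and their order was CHIR/XAV EpiSCs, FGF2/activin EpiSCs, ESCs from low to high. Group means were 5.85 ± 0.31, 8.08 ± 0.09 and 9.96 ± 0.05 (SD, n = 3 each) in the same order. Trh fell by 4.11 in CHIR/XAV EpiSCs against ESCs (SE 0.12, limma adjusted p = 1.63e-12) and by 1.87 in FGF2/activin EpiSCs against ESCs (adjusted p = 6.29e-09). Between the EpiSC cultures it was lower in CHIR/XAV by 2.23 log2 units, with a difference of -2.23 (SE 0.12, adjusted p = 3e-09) or 4.70-fold. The spread between CHIR/XAV arrays was wider than in the other groups, but the highest of them lay well below the lowest FGF2/activin array. The mean in CHIR/XAV EpiSCs was still above 98.8% of olfactory receptor genes. All 3 calls held in each of 18 alternative settings, in which the difference ranged from -4.28 to -3.97 against ESCs in CHIR/XAV, from -1.98 to -1.67 against ESCs in FGF2/activin, and from -2.40 to -2.10 between the EpiSC groups.

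The genes of the hormone's receptors and degrading enzymes differed by at most 0.28 log2 units. The receptor genes Trhr and Trhr2 were dim, with Trhr at 4.52 in both EpiSC groups and 4.63 in ESCs, and Trhr2 at 4.98 in CHIR/XAV EpiSCs, 4.82 in FGF2/activin EpiSCs and 5.03 in ESCs. The difference of Trhr2 in FGF2/activin EpiSCs against ESCs was -0.21 (adjusted p = 0.0366), close to the median of olfactory receptor genes (-0.20), and the call was lost after median centring (adjusted p = 0.131), quantile normalization (0.523) and with olfactory receptor genes set equal between arrays (0.975). Pgpep1, a peptidase gene that cleaves pyroglutamyl peptides such as this hormone, was at 6.12 in CHIR/XAV EpiSCs, 6.39 in FGF2/activin EpiSCs and 6.40 in ESCs, lower in CHIR/XAV EpiSCs than in ESCs by 0.28 (adjusted p = 0.00503). Trhde, the gene of the membrane enzyme that degrades it, was at 4.67, 4.57 and 4.81 in the same groups. Its difference of -0.23 in FGF2/activin EpiSCs against ESCs (adjusted p = 0.0452) was likewise not called in those 3 settings (adjusted p = 0.125, 0.375 and 0.804).

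By the root-mean-square difference of centred values over the 9 arrays, the genes closest to Trh in pattern were Nfib (0.30), Sfmbt2 (0.41) and Lefty2 (0.43). The SD of Trh itself over the 9 arrays was 1.79. Nfib, a nuclear factor I transcription factor gene, averaged 4.70 in CHIR/XAV EpiSCs, 6.40 in FGF2/activin EpiSCs and 8.30 in ESCs. Sfmbt2, a Polycomb group gene, averaged 6.35, 9.05 and 9.98 in the same groups. Lefty2, a secreted antagonist of Nodal that Nodal signalling induces, averaged 4.82, 6.20 and 8.54. All 3 shared the order of Trh, although Sfmbt2 was closer to its ESC level in FGF2/activin EpiSCs than the others were. The Pearson correlations with Trh were 0.99, 0.97 and 0.97 over 9 arrays that share 3 groups, and they describe the choice of these genes.

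**Figure D3:**
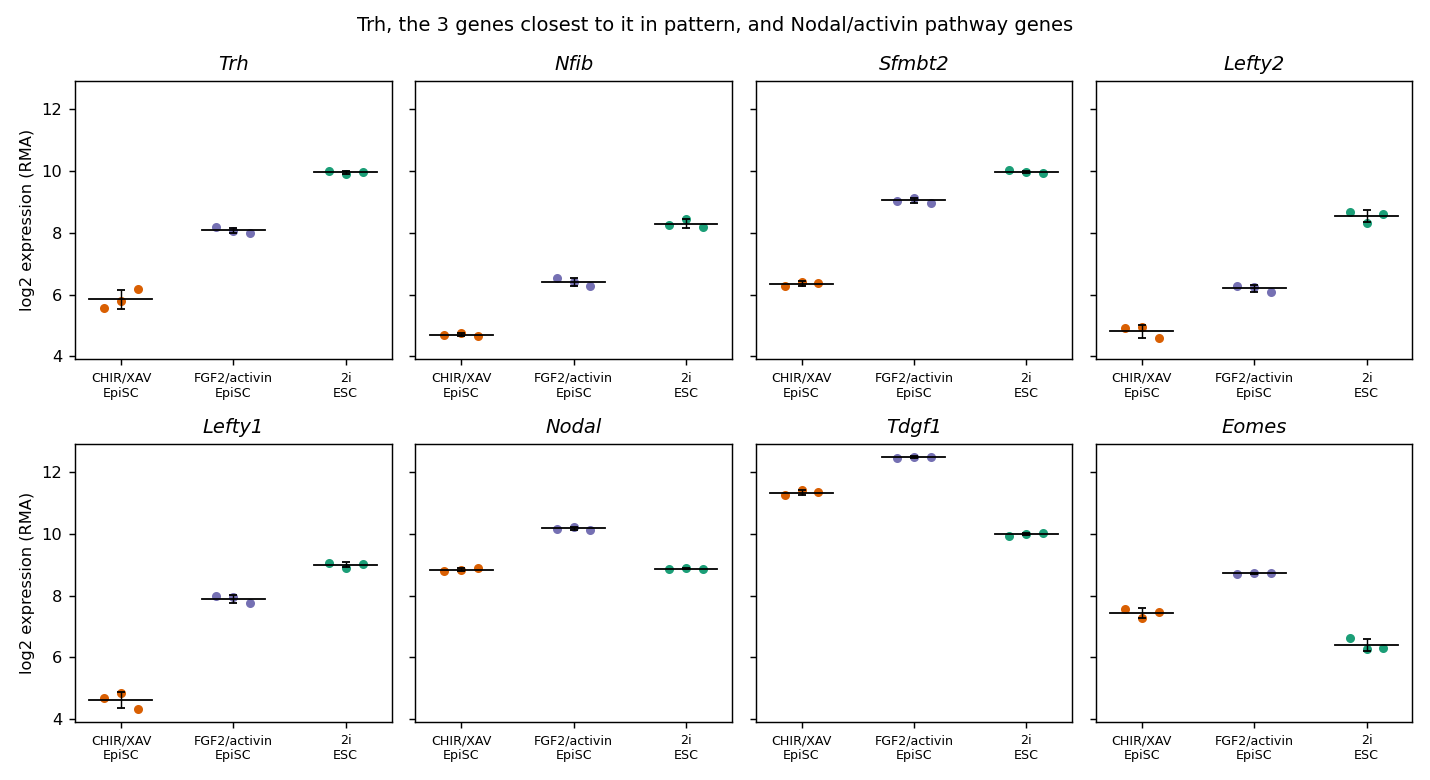
Log2 expression (RMA) of Trh, of the 3 genes closest to it in pattern (Nfib, Sfmbt2, Lefty2) and of 4 Nodal pathway genes on each of 9 arrays (dots), with group means (lines) and SD (bars, n = 3). Trh, Nfib, Sfmbt2, Lefty2 and Lefty1 are lowest in CHIR/XAV EpiSCs and highest in 2i ESCs, whereas Nodal, Tdgf1 and Eomes are highest in FGF2/activin EpiSCs.

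Trh and Hhex were the 2 genes of the list that were called lower in CHIR/XAV EpiSCs than in both other groups, and their promoters are shown for that reason. The sequences are from RefSeq on GRCm38.p6 and run from 250 bases before to 50 bases after the annotated start, 5′ to 3′, and 6 of the 10 genes matched an entry of the table. The Trh promoter lies at chr6:92244601-92244900 on the minus strand and the Hhex promoter at chr19:37434591-37434890 on the plus strand. Capitals mark matches to any of 6 short motifs searched on both strands.
Trh: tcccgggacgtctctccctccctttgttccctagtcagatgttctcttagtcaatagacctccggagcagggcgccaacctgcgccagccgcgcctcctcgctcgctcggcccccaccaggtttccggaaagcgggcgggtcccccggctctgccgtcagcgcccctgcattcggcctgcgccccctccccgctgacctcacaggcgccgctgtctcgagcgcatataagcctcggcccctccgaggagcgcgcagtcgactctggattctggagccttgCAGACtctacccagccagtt
Hhex: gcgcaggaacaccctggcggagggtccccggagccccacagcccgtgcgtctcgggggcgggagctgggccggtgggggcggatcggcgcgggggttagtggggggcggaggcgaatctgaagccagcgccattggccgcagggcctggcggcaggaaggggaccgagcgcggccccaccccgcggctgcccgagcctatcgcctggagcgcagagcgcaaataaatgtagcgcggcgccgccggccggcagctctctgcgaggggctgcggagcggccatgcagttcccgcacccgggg

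The Trh window holds 28 CpG dinucleotides at 67.0% G and C, and the Hhex window 37 at 75.7%, where the median of 32851 promoters was 7 CpG and 52.7%. The motifs searched were CTTTGA for TCF/LEF factors (in 16.0% of all promoters), CAGAC for Smad proteins (49.6%), AAGGTCA for Esrrb (4.7%), the octamer ATGCAAAT for Oct4 (1.7%), AGATAA for Gata factors (11.2%) and TATAAA for the TATA box (13.6%). Trh had a single match, to CAGAC, 31 bases after the start, and Hhex had none, so no overlap of matches was possible. A match of this kind is a string of letters and says nothing of binding.

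Cer1 encodes Cerberus-like, a secreted antagonist of Nodal, BMP and Wnt ligands made by anterior visceral endoderm and by anterior definitive endoderm. It was at 4.36, 4.28 and 4.24 on the CHIR/XAV arrays, at 4.02, 4.21 and 4.11 on the FGF2/activin arrays and at 4.49, 4.22 and 4.45 on the ESC arrays. All of these values are very dim: the group means were above only 11.7%, 5.45% and 12.3% of olfactory receptor genes. Cer1 was called lower in FGF2/activin EpiSCs than in 2i ESCs by 0.27 (SE 0.08, adjusted p = 0.0111), with no overlap between the groups. That call was lost after quantile normalization (adjusted p = 0.0806), in a test against 1.5-fold (adjusted p = 1), without FGF2/activin replicate 1 (adjusted p = 0.0547) and when olfactory receptor genes were set equal between arrays (adjusted p = 0.559). The difference of CHIR/XAV EpiSCs from ESCs was -0.091 (95% interval -0.27 to 0.086, adjusted p = 0.395) and from FGF2/activin EpiSCs 0.18 (adjusted p = 0.093). The related gene Dand5, a Cerberus-family antagonist of the node, was at 4.80 in CHIR/XAV EpiSCs, 4.89 in FGF2/activin EpiSCs and 4.75 in ESCs and was not called.

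Cxcr4 encodes the receptor of the chemokine Cxcl12 and is widely used to sort definitive endoderm, although mesoderm and endothelium express it as well. It was at 5.78, 5.80 and 5.95 in CHIR/XAV EpiSCs, at 5.51, 5.73 and 6.03 in FGF2/activin EpiSCs and at 5.80, 6.15 and 5.76 in ESCs. The groups overlapped in all 3 comparisons, and their means of 5.85 ± 0.09, 5.76 ± 0.26 and 5.90 ± 0.22 (SD, n = 3 each) did not differ beyond the spread between arrays. The differences were -0.057 in CHIR/XAV EpiSCs against ESCs (95% interval -0.32 to 0.21, adjusted p = 0.739), -0.15 in FGF2/activin EpiSCs against ESCs (-0.41 to 0.12, adjusted p = 0.319) and 0.089 between the EpiSC groups (-0.18 to 0.36, adjusted p = 0.597). These intervals leave out a change of Cxcr4 by 2-fold in either direction on this scale. Its ligand gene Cxcl12 did change: it was at 6.89 in CHIR/XAV EpiSCs, 5.89 in FGF2/activin EpiSCs and 5.58 in ESCs, a rise of 1.31 in CHIR/XAV EpiSCs against ESCs (adjusted p = 7.35e-09) and of 1.00 against FGF2/activin EpiSCs (adjusted p = 2.81e-07). Ackr3, the gene of a scavenger receptor for the same chemokine, was lower in both EpiSC groups than in ESCs. It was at 4.59 in CHIR/XAV EpiSCs, a fall of 0.88, and at 4.42 in FGF2/activin EpiSCs, against 5.47 in ESCs.

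Sox17 and Sox7 belong to the SoxF family of HMG-box transcription factors. Sox17 is needed for definitive endoderm, and both mark primitive endoderm and endothelium. Sox17 was at 4.71, 4.61 and 4.52 in CHIR/XAV EpiSCs, at 4.49, 4.82 and 4.52 in FGF2/activin EpiSCs and at 4.93, 4.77 and 4.81 in ESCs. One FGF2/activin array reached the ESC values, so those groups overlapped, and the difference of -0.23 (95% interval -0.43 to -0.031, adjusted p = 0.0441) was called by a narrow margin. It was lost in 10 of 17 alternatives. In CHIR/XAV EpiSCs against ESCs the difference was -0.22 (adjusted p = 0.0615), and between the EpiSC groups it was 0.0056 (95% interval -0.19 to 0.20, adjusted p = 0.968).

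Sox7 was at 4.95, 4.77 and 4.82 in CHIR/XAV EpiSCs, at 4.79, 4.59 and 4.82 in FGF2/activin EpiSCs and at 4.86, 4.90 and 5.07 in ESCs. It was called lower in FGF2/activin EpiSCs than in 2i ESCs by 0.21 (adjusted p = 0.0388), a call lost in 7 of 17 alternatives, and differed by -0.10 (95% interval -0.28 to 0.079) in CHIR/XAV EpiSCs against ESCs and by 0.11 (-0.066 to 0.29) between the EpiSC groups. The third SoxF gene, Sox18, was at 4.89, 4.81 and 4.98 in the 3 groups and was not called in any comparison. All 3 SoxF genes thus lay within the range of olfactory receptor genes in every culture, whose own median difference was -0.11 in CHIR/XAV and -0.20 in FGF2/activin EpiSCs against ESCs.

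Endothelial markers were set beside the SoxF genes and Cxcr4, which endothelium expresses. Of 8 such genes none was called higher and 1 lower in CHIR/XAV EpiSCs against ESCs, and 1 higher and 1 lower in FGF2/activin EpiSCs against ESCs. Over all genes 24.7% were higher and 22.1% lower in the first of these comparisons, and 27.8% and 33.5% in the second. Both called genes are named here. The higher one was Tek, an endothelial receptor gene, at 6.41 in CHIR/XAV EpiSCs, 6.66 in FGF2/activin EpiSCs and 6.34 in ESCs, with a rise of 0.31 in FGF2/activin EpiSCs (adjusted p = 0.00712). The lower one was Pecam1, which ESCs themselves express, at 5.07 in CHIR/XAV EpiSCs, 4.86 in FGF2/activin EpiSCs and 8.22 in ESCs. The mean over the list was 4.95 to 5.11 on CHIR/XAV arrays, 4.95 to 5.07 on FGF2/activin arrays and 5.38 to 5.50 on ESC arrays. No value was 0 on this scale, and the part of such cells in the values of Sox17 and Sox7 was not tested.

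Foxa1 and Foxa2 encode forkhead pioneer factors that open chromatin at gut genes, and Foxa2 also marks the anterior primitive streak, the node and visceral endoderm. Foxa1 was at 5.92, 5.69 and 5.50 in CHIR/XAV EpiSCs, at 5.66, 5.96 and 5.82 in FGF2/activin EpiSCs and at 5.66, 5.60 and 5.49 in ESCs. Foxa2 was at 5.77, 5.72 and 5.39 in CHIR/XAV EpiSCs, at 5.34, 5.54 and 5.60 in FGF2/activin EpiSCs and at 5.51, 5.34 and 5.44 in ESCs. The arrays of different groups overlapped for both genes in every comparison, and neither was called. The differences of Foxa1 were 0.12 in CHIR/XAV EpiSCs against ESCs (adjusted p = 0.36), 0.23 in FGF2/activin EpiSCs against ESCs (95% interval 0.0052 to 0.45, adjusted p = 0.0703) and -0.11 between the EpiSC groups (adjusted p = 0.442). Those of Foxa2 were 0.20 (-0.015 to 0.42, adjusted p = 0.121), 0.067 (adjusted p = 0.571) and 0.13 (adjusted p = 0.31). CHIR/XAV replicate 3 had the lowest value of both genes in its group. Without it Foxa2 was called higher in CHIR/XAV EpiSCs, by 0.32 against ESCs (adjusted p = 0.0108) and by 0.25 against FGF2/activin EpiSCs (adjusted p = 0.0397).

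The third FoxA gene, Foxa3, which acts in later liver and gut and in visceral endoderm, differed between the EpiSC groups. It was at 5.53 in CHIR/XAV EpiSCs, 4.74 in FGF2/activin EpiSCs and 5.01 in ESCs, a rise of 0.52 in CHIR/XAV EpiSCs against ESCs (adjusted p = 0.000223), with a difference of 0.79 between the EpiSC groups (adjusted p = 6.95e-06).

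Gata4 and Gata6 encode zinc-finger factors that specify primitive endoderm, and Gata6 alone can turn mouse ESCs into it. Gata6 was at 5.40, 5.66 and 5.40 in CHIR/XAV EpiSCs, at 5.77, 5.73 and 5.86 in FGF2/activin EpiSCs and at 5.32, 5.31 and 5.23 in ESCs. The arrays of the 3 groups did not overlap, with FGF2/activin EpiSCs highest and ESCs lowest. Gata6 rose by 0.50 in FGF2/activin EpiSCs against ESCs (SE 0.08, adjusted p = 9.24e-05, or 1.41-fold) and was lower in CHIR/XAV than in FGF2/activin EpiSCs, with a difference of -0.30 (adjusted p = 0.00746). In CHIR/XAV EpiSCs against ESCs the difference was 0.20 (95% interval 0.030 to 0.37, adjusted p = 0.0518), and it passed the threshold in 6 of 18 alternatives. Its group mean was above 97.6% of olfactory receptor genes in CHIR/XAV EpiSCs, 99.2% in FGF2/activin EpiSCs and 91.5% in ESCs.

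Gata4 went the other way. It was at 5.04, 4.91 and 4.83 in CHIR/XAV EpiSCs, at 4.75, 4.59 and 4.79 in FGF2/activin EpiSCs and at 5.28, 5.16 and 5.31 in ESCs. Again the 3 groups did not overlap, with ESCs highest. Gata4 fell by 0.54 in FGF2/activin EpiSCs (SE 0.08, adjusted p = 4.61e-05) and by 0.32 in CHIR/XAV EpiSCs (adjusted p = 0.00414) against ESCs, while the difference between the EpiSC groups, 0.22 (adjusted p = 0.0377), was lost in 8 of 17 alternatives. The call in CHIR/XAV EpiSCs was lost when olfactory receptor genes were set equal (adjusted p = 0.0639) and in the test against 1.5-fold (adjusted p = 1). Gata4 lay below the 95th percentile of olfactory receptor genes in all 3 groups.

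Of 14 genes of the SoxF, FoxA and Gata families and their Zfpm cofactors, 6 of them among the 10 genes above, 2 were called higher and 3 lower in CHIR/XAV EpiSCs against ESCs, 4 and 6 in FGF2/activin EpiSCs against ESCs, and 4 and 4 in CHIR/XAV against FGF2/activin EpiSCs. With olfactory receptor genes set equal these counts were 5 and 1, 6 and 2, and 2 and 5. In that setting, of all 19938 genes, 6460 were called higher and 2602 lower, 7886 and 2431, and 2352 and 4924. As deposited, 24.7% of all genes were higher and 22.1% lower, 27.8% and 33.5%, and 20.5% and 21.1% in the same comparisons. The largest differences were those of Zfpm2 (Fog2), a cofactor that binds Gata factors. Zfpm2 was at 5.07 in CHIR/XAV EpiSCs, 7.36 in FGF2/activin EpiSCs and 5.49 in ESCs, a rise of 1.87 in FGF2/activin EpiSCs against ESCs (adjusted p = 5.08e-10) and a difference of -2.29 in CHIR/XAV against FGF2/activin EpiSCs (adjusted p = 2.18e-10). Gata3, a factor of trophoblast and later lineages, rose by 1.07 in FGF2/activin EpiSCs against ESCs. Gata6, Gata3, Zfpm1 and Zfpm2 were the 4 genes called higher in FGF2/activin EpiSCs, and all 4 were lower in CHIR/XAV than in FGF2/activin EpiSCs.

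Hhex encodes a homeobox factor of anterior visceral endoderm, of anterior definitive endoderm and of the liver and pancreas buds. It was at 5.55, 5.54 and 5.52 in CHIR/XAV EpiSCs, at 5.98, 5.83 and 5.91 in FGF2/activin EpiSCs and at 5.91, 6.04 and 5.89 in ESCs. The CHIR/XAV arrays lay close together and below all others, whereas FGF2/activin EpiSCs and ESCs overlapped. Hhex fell by 0.41 in CHIR/XAV EpiSCs against ESCs (SE 0.07, adjusted p = 0.000165, or 1.33-fold) and differed by -0.37 in CHIR/XAV against FGF2/activin EpiSCs (adjusted p = 0.00058). FGF2/activin EpiSCs differed from ESCs by -0.042 (95% interval -0.19 to 0.11, adjusted p = 0.605). Both calls in CHIR/XAV EpiSCs held in 17 of 18 alternatives and were lost in the test against 1.5-fold (adjusted p = 1 in both).

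Because the 9 genes other than Trh differed so little, their calls were set beside the scaling of the arrays. Olfactory receptor genes were themselves called lower in FGF2/activin EpiSCs than in 2i ESCs in 473 cases of 1027 (46.1%), lower in CHIR/XAV EpiSCs than in ESCs in 173 cases (16.8%), and higher in CHIR/XAV than in FGF2/activin EpiSCs in 95 cases (9.25%). When these genes were set equal between arrays, a setting added after the data were seen, the median difference of all genes moved from -0.031 to 0.091 in CHIR/XAV EpiSCs and from -0.082 to 0.12 in FGF2/activin EpiSCs against ESCs. On that scale Sox17 differed by -0.026 and Sox7 by -0.012 in FGF2/activin EpiSCs against ESCs, and neither was called. Gata4 was still lower there, with a difference of -0.34, and Gata6 still higher, at 0.70. Foxa1 (0.43, adjusted p = 0.00222) and Foxa2 (0.27, adjusted p = 0.0353) were called higher in FGF2/activin EpiSCs on that scale, and Foxa2 (0.32, adjusted p = 0.0146) and Gata6 (0.32, adjusted p = 0.00676) in CHIR/XAV EpiSCs. After median centring and after quantile normalization Foxa1 was called higher in FGF2/activin EpiSCs as well (adjusted p = 0.0343 and 0.0477).

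**Figure D4:**
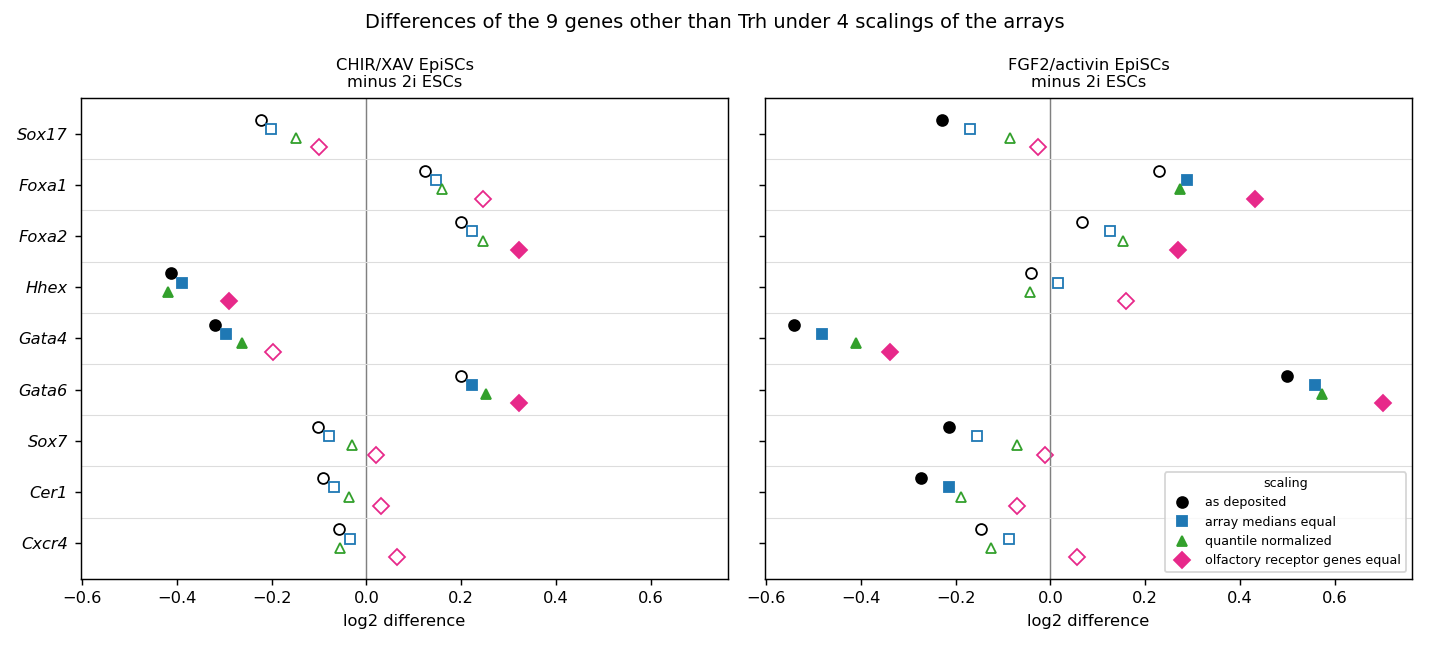
Log2 difference of the 9 genes other than Trh in CHIR/XAV EpiSCs minus 2i ESCs and in FGF2/activin EpiSCs minus 2i ESCs under 4 scalings of the arrays (symbols), filled where the adjusted p was under 0.05. Hhex in CHIR/XAV EpiSCs and Gata4 and Gata6 in FGF2/activin EpiSCs are filled under all 4 scalings, whereas Sox17 and Sox7 in FGF2/activin EpiSCs are filled only as deposited.

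The genes that act upstream of endoderm include the Nodal ligand, its co-receptor and the factors it induces. Of 15 genes of the Nodal/activin pathway and of early mesendoderm, 6 were called higher and 4 lower in CHIR/XAV EpiSCs against ESCs, 8 and 3 in FGF2/activin EpiSCs against ESCs, and 3 and 8 in CHIR/XAV against FGF2/activin EpiSCs. Over all genes 24.7% were higher and 22.1% lower, 27.8% and 33.5%, and 20.5% and 21.1% in these comparisons. These shares are also the background for the counts of the lists that follow, as made on the deposited values. With olfactory receptor genes set equal, 10 of the 15 were higher and 1 lower in FGF2/activin EpiSCs against ESCs. In that setting 7886 of all 19938 genes were higher and 2431 lower there. In CHIR/XAV EpiSCs against ESCs 6460 were higher and 2602 lower, and between the EpiSC groups 2352 and 4924. These numbers are the background for later counts made in that setting. The median difference of the list was 0.021, 0.32 and -0.31. Nodal itself, the ligand, was at 8.84 in CHIR/XAV EpiSCs, 10.17 in FGF2/activin EpiSCs and 8.87 in ESCs, a rise of 1.30 in FGF2/activin EpiSCs against ESCs (adjusted p = 3.52e-10). Tdgf1 (Cripto), the Nodal co-receptor, rose by 1.35 in CHIR/XAV EpiSCs and by 2.49 in FGF2/activin EpiSCs against ESCs, to 11.33 and 12.48 against 9.98. Gdf3, a related ligand, had differences of -2.05 and -3.36, both falls.

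Downstream in the pathway, Foxh1, the forkhead partner of Smad2, rose by 1.66 in CHIR/XAV EpiSCs and by 1.17 in FGF2/activin EpiSCs against ESCs. Eomes, the T-box factor that starts the definitive endoderm programme, was at 7.43 in CHIR/XAV EpiSCs, 8.72 in FGF2/activin EpiSCs and 6.40 in ESCs. It rose by 1.03 (adjusted p = 5.25e-07) and by 2.32 (adjusted p = 5.97e-11) against ESCs, and differed by -1.28 in CHIR/XAV against FGF2/activin EpiSCs (adjusted p = 1.03e-07). Mixl1, Gsc and Lhx1, further factors of mesendoderm, did not rise with it. Mixl1 was at 5.73 in CHIR/XAV EpiSCs, 5.29 in FGF2/activin EpiSCs and 5.71 in ESCs, Gsc at 5.24, 5.23 and 5.33, and Lhx1 at 4.74, 4.59 and 4.75, and of these only Mixl1 in FGF2/activin EpiSCs was called against ESCs, as lower by 0.41 (adjusted p = 0.000846).

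Among 12 ligands and partners of Cxcr4, Trh and Cer1 and related antagonists, 2 were called higher and 5 lower in CHIR/XAV EpiSCs against ESCs, 3 and 6 in FGF2/activin EpiSCs against ESCs (or 4 and 4 after quantile normalization and with olfactory receptor genes set equal), and 1 and 5 in CHIR/XAV against FGF2/activin EpiSCs. The Nodal antagonist Lefty1 was at 4.62 in CHIR/XAV EpiSCs, 7.89 in FGF2/activin EpiSCs and 8.99 in ESCs, a difference of -4.37 in CHIR/XAV EpiSCs against ESCs (adjusted p = 5.52e-13). Wnt3, the ligand that starts the primitive streak, rose by 0.97 in CHIR/XAV EpiSCs and by 2.36 in FGF2/activin EpiSCs against ESCs. Bmp4 fell by 1.96 and by 1.66.

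Other genes used as markers of definitive or anterior endoderm moved in both directions. Of 16, 3 were called higher and 6 lower in CHIR/XAV EpiSCs against ESCs, 4 and 8 in FGF2/activin EpiSCs against ESCs, and 4 and 3 in CHIR/XAV against FGF2/activin EpiSCs. After quantile normalization and with olfactory receptor genes set equal, the last counts were 2 and 3. Kit, a receptor tyrosine kinase gene also used with Cxcr4 to sort endoderm, fell by 2.88 in CHIR/XAV EpiSCs and fell by 3.71 in FGF2/activin EpiSCs, to 7.29 and 6.46 against 10.16 in ESCs. Hesx1, a homeobox gene of anterior tissue, fell by 1.47 and by 1.67. Cyp26a1, the gene of a retinoic acid degrading enzyme, rose by 1.68 in FGF2/activin EpiSCs against ESCs, to 5.71 against 4.03. Frzb, a secreted Wnt antagonist gene, rose by 0.83 in CHIR/XAV EpiSCs and by 0.79 in FGF2/activin EpiSCs.

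Of 15 measured markers of primitive and parietal endoderm, 5 were called higher and 4 lower in CHIR/XAV EpiSCs against ESCs, 8 and 5 in FGF2/activin EpiSCs against ESCs, and 2 and 9 in CHIR/XAV against FGF2/activin EpiSCs. With olfactory receptor genes set equal, the first counts were 7 and 3, and 9 and 3. Fst, which encodes the activin-binding protein follistatin, rose by 3.10 in CHIR/XAV EpiSCs and by 3.83 in FGF2/activin EpiSCs. Sparc, a matrix protein gene, rose by 2.39 in FGF2/activin EpiSCs against ESCs, to 12.15 against 9.76. Lama1, a basement membrane laminin gene, fell by 1.77 and by 1.79. Dab2 was at 7.04 in CHIR/XAV EpiSCs, 7.09 in FGF2/activin EpiSCs and 5.52 in ESCs, a rise of 1.51 in CHIR/XAV EpiSCs. Lamb1 was at 8.71, 9.36 and 7.51 in the same groups, a rise of 1.85 in FGF2/activin EpiSCs. At 2-fold or more, 5 genes of the list were called higher and 2 lower in each comparison with ESCs. Several of these genes are also expressed outside endoderm. Gata6, which is not in this list, was called higher in FGF2/activin EpiSCs against ESCs. Gata4, Sox17 and Sox7 were called lower there as deposited, Sox17 and Sox7 by narrow margins, and Sox7 is itself in this list.

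Of 14 measured markers of visceral endoderm, 4 were called higher and 1 lower in CHIR/XAV EpiSCs against ESCs, 4 and 9 in FGF2/activin EpiSCs against ESCs, and 7 and 3 in CHIR/XAV against FGF2/activin EpiSCs. With olfactory receptor genes set equal, 6 were higher in CHIR/XAV EpiSCs against ESCs, 1 was lower in FGF2/activin EpiSCs against ESCs, and 4 were higher in CHIR/XAV against FGF2/activin EpiSCs. After quantile normalization these 3 counts were 5, 5 and 5. Lrp2 (megalin) and Cubn (cubilin), the genes of the endocytic receptors of visceral endoderm, rose by 4.11 and by 1.63 in FGF2/activin EpiSCs against ESCs, Lrp2 to 10.13 against 6.02 and Cubn to 6.12 against 4.49. Lrp2 also rose in CHIR/XAV EpiSCs, by 2.25, while Cubn there was at 4.60 (adjusted p = 0.233). The secreted products differed in level. Afp and Ttr lay within the range of olfactory receptor genes in every group: Afp was at 4.72 in CHIR/XAV EpiSCs, 4.64 in FGF2/activin EpiSCs and 4.74 in ESCs, and Ttr at 4.90, 4.66 and 4.94. Hnf4a, their regulator, was at 5.50, 5.08 and 5.38. Apoe, an apolipoprotein gene that other cells also express, was at 10.43 in CHIR/XAV EpiSCs, 9.97 in FGF2/activin EpiSCs and 10.87 in ESCs, and fell by 0.44 and fell by 0.90 against ESCs. Rbp4, the gene of a retinol carrier, was at 5.79, 5.51 and 5.31 and rose by 0.48 in CHIR/XAV EpiSCs against ESCs (adjusted p = 0.00017). Apoa1, another apolipoprotein gene, was at 5.78, 5.51 and 5.79.

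Of 14 measured factors and markers of the later gut and its organs, 2 were called higher and 4 lower in CHIR/XAV EpiSCs against ESCs, 3 and 7 in FGF2/activin EpiSCs against ESCs, and 3 and 3 between the EpiSC groups. With olfactory receptor genes set equal 2 were lower in each comparison with ESCs, and after quantile normalization 3 and 2 were. Sox9, also a factor of other lineages, rose by 1.43 and Isl1 by 1.25 in FGF2/activin EpiSCs against ESCs. Cdx2, a factor of hindgut and trophoblast, fell by 1.07 in CHIR/XAV EpiSCs and by 0.84 in FGF2/activin EpiSCs.

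**Figure D5:**
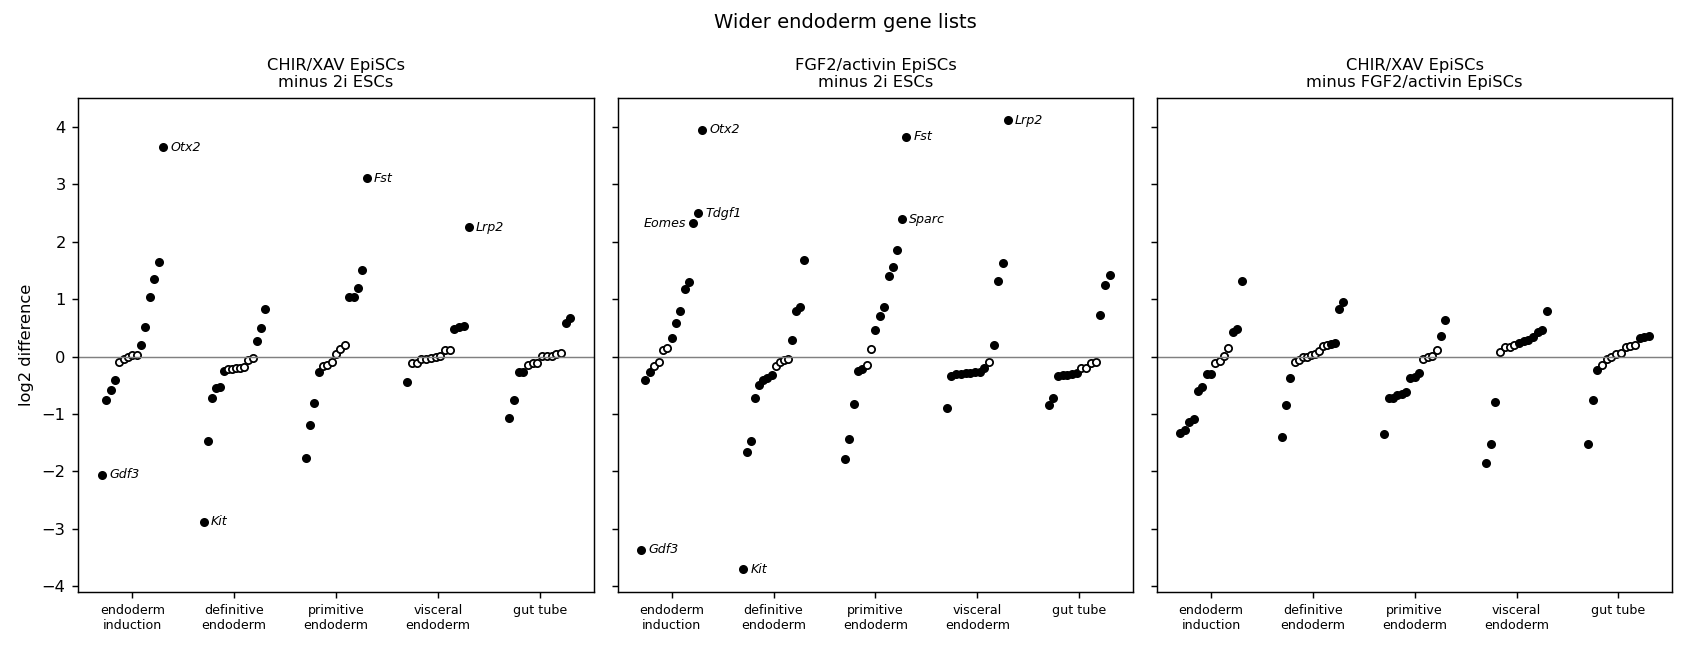
Log2 difference of each gene in 5 wider lists (genes that induce endoderm and markers of definitive, primitive and visceral endoderm and of the gut tube) in CHIR/XAV EpiSCs minus 2i ESCs, FGF2/activin EpiSCs minus 2i ESCs and CHIR/XAV minus FGF2/activin EpiSCs, sorted within each list and filled where the adjusted p was under 0.05. Single genes stand out, such as Otx2 (3.65 and 3.95), Fst (3.10 and 3.83) and Lrp2 (2.25 and 4.11) above and Kit (-2.88 and -3.71) below, while most genes differ by less than 2-fold. In FGF2/activin EpiSCs minus ESCs, 5 of 15 induction genes were called higher and 1 lower at 2-fold or more. The other lists had, in order, 1 and 3 of 16, 5 and 2 of 15, 3 and 0 of 14, and 2 and 0 of 14. Of all 19938 genes, 1327 were higher and 688 lower in the same way.

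Markers of other lineages that such cultures could hold were counted in the same way. Over all genes 24.7% were higher and 22.1% lower in CHIR/XAV EpiSCs against ESCs, and 27.8% and 33.5% in FGF2/activin EpiSCs. With olfactory receptor genes set equal, 6460 of all 19938 genes were higher and 2602 lower in the first, and 7886 and 2431 in the second. With so few genes per list, these counts cannot be read closely beside those shares. Of 10 measured primitive streak and mesoderm genes, 4 were higher and 4 lower by the same test in the CHIR/XAV cultures, and 3 and 5 in the FGF2/activin cultures, each against ESCs. T (Brachyury), also on that list, is not among these 10 genes. With olfactory receptor genes set equal the mesoderm counts were 4 and 1, and 4 and 0, and after quantile normalization 4 and 3, and 3 and 1. Of 9 fibroblast genes, 1 was called higher and 1 lower, and 4 and 1, or 3 and 0, and 5 and 1, with olfactory receptor genes set equal. Of 7 neural genes, 2 and 2, and 2 and 3. Of 8 trophoblast genes, 5 and 2, and 5 and 3, with the keratin genes Krt18 (3.95) and Krt8 (3.79) rising most in FGF2/activin EpiSCs. The 3 lower ones there were Tfap2c (7.26 against 9.05 in ESCs), Cdx2 (5.14 against 5.97) and Elf5 (4.53 against 4.89). The trophoblast list averaged 6.54 to 6.60 on CHIR/XAV arrays, 7.63 to 7.71 on FGF2/activin arrays and 6.49 to 6.53 on ESC arrays. That average rose mainly with the keratin genes and Eomes (8.72 in FGF2/activin EpiSCs against 6.40 in ESCs), while Tfap2c, Cdx2 and Elf5 fell. It was highest in the group where Gata6 was highest, and a part of trophoblast cells in the value of Gata6 was not tested.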

How the data were processed

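Total RNA was hybridised to 9 single-colour microarrays, 3 per group, and groups and replicate numbers were taken from sample titles. The deposited values are log2 expression per probe set, which the authors made with RMA and the Partek software (version not given in the sources used here), per the submitters' processing notes. The 35399 probe sets comprised 21789 annotated with a single gene, the only kind used, 1621 with several and 11989 without one. Symbols were updated through a RefSeq table (GRCm38.p6), which held 19919 of 19938 genes. For 999 genes with several probe sets the brightest by mean was kept.

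Differences were fitted with limma 3.58.1 (R 4.3.3; default eBayes), using all 9 arrays, no covariates and no filter, and Benjamini-Hochberg adjusted p-values over 19938 genes at a threshold of 0.05. The fit was tested on simulated data. The number of arrays limits the precision. The 10 genes and the other lists were chosen with earlier results of these data known, and some genes sit in more than 1 list. Named genes are the 10 genes, up to 4 genes per list with the largest called change, the 3 genes closest to Trh in pattern (the pattern rule needed group means at least 1 log2 unit apart), and a few others named after their values were seen. Alternatives were the mean of all probe sets, trend and robust variance, a filter on the dimmest 40% of genes, 2 groups in the fit, median centring, quantile normalization, each array left out, a replicate block, limma's treat against 1.5-fold and, added after the data were seen, olfactory receptor genes set equal.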

Additional observations from a re-analysis of the deposited data

How the results depend on the processing

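All 3 calls of Trh held in every one of 18 alternatives. In the treat test against 1.5-fold only Trh was called in each comparison, so the number of the 10 genes called was 1 in all 3, and over all genes it called 2241 in CHIR/XAV EpiSCs against ESCs, 2726 in FGF2/activin EpiSCs against ESCs and 1175 between the EpiSC groups. Leaving out the dimmest 40% of genes removes Cer1, Gata4, Sox17 and Sox7 and so left 2 called in FGF2/activin EpiSCs against ESCs. With each array left out in turn the number called was 3 to 5 in CHIR/XAV EpiSCs against ESCs (5 without CHIR/XAV replicate 1 and without CHIR/XAV replicate 3), 4 to 7 in FGF2/activin EpiSCs against ESCs and 3 to 5 between the EpiSC groups. Some differences near 0 changed sign without a call in either setting. In CHIR/XAV EpiSCs against ESCs these were Cxcr4 without ESC replicate 2 (0.067) and, with olfactory receptor genes set equal, Cxcr4 (0.065), Cer1 (0.031) and Sox7 (0.021). In FGF2/activin EpiSCs against ESCs they were Hhex after median centring (0.017), without ESC replicate 2 (0.0048) and with olfactory receptor genes set equal (0.16), and Cxcr4 in that last setting (0.056). Between the EpiSC groups they were Sox17 after median centring (-0.031) and quantile normalization (-0.062), with olfactory receptor genes set equal (-0.074), without CHIR/XAV replicate 1 (-0.045) and without FGF2/activin replicates 1 (-0.055) and 3 (-0.038), and Cxcr4 without FGF2/activin replicate 1 (-0.033). With each array left out in turn, these spanned -0.13 to 0.067 for Cxcr4 and -0.079 to 0.0048 for Hhex in the first 2 comparisons, and -0.055 to 0.11 for Sox17 and -0.033 to 0.22 for Cxcr4 in the third. The cause was not tested. The share of called genes that were higher was 52.7%, 45.3% and 49.2% in the 3 comparisons as deposited, and 71.3%, 76.4% and 32.3% with olfactory receptor genes set equal.

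Replicate numbers did not pair the arrays: deviations of same-numbered arrays correlated at -0.07 to 0.24, and 1 of 9 pairs was over 0.1. With replicate number as a block, 3, 6 and 4 of the 10 genes were called, as without it, and no call among the 30 differences changed. Precision is limited by 3 arrays per group and by dim signals, for which no detection calls were used, so a difference between dim values may understate the change.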
